A study of Mus musculus with 10 samples.

Results

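The genes described here are the chemokines, their receptors and the suppressors of cytokine signalling (SOCS genes) of the juvenile mouse testis. They were chosen by name: every gene on either array design whose symbol starts with Ccl, Cxcl, Cx3c, Ccr, Cxcr, Ackr or Socs followed by its number, and Cish. The rule found 60 genes among the 18193 genes read from the arrays. They comprise 32 ligands, 16 receptors, 4 atypical receptors and 8 SOCS genes (Cish among them). Their levels were followed in 3 fractions of testis cells, in the intact organ and in RNA mixed from other organs (the somatic mix).

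Chemokines are small secreted proteins that guide cells by binding receptors coupled to G proteins, and most are known for drawing leukocytes to a tissue. Their atypical receptors bind the same ligands and remove them without the usual signal. SOCS proteins are made in response to cytokines and switch off the JAK and STAT signalling that induced them, so that Socs3 and Cish are commonly read as traces of recent cytokine stimulation. In the testis, Cxcl12 from somatic cells and its receptor Cxcr4 are known for holding spermatogonial stem cells in place, and resident macrophages lie between and around the tubules.

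All samples came from male C57BL/6 mice. By its title the series served to find genes that act when chromosomes segregate in meiosis I, and its description calls the fractions enriched, not pure. The spermatogonial sample was Percoll fraction 2 from testes at day 8, leptotene/zygotene spermatocytes came from fraction 5 at day 12, and pachytene spermatocytes came from fraction 8 at day 15. Intact testis (whole testis) and the somatic mix (11 tissues: skin, spleen, muscle and brain, the thoracic organs heart and lung, and from the abdomen liver, kidney, stomach, intestine and colon) were taken at day 15. Before the gradient the testes were digested with hyaluronidase, trypsin and collagenase. The labels attach this protocol to all samples, and the sources used here do not say whether whole testis and the somatic mix also went through it. Each group had 2 samples, but samples numbered 1 were read on a first array design and samples numbered 2 on a second, which carries other probe sets. Each gene was therefore read from 1 array per group (n = 1), no test across replicates could be made, and no p-value is given. Whether animals were pooled, and whether samples 1 and 2 came from separate preparations, is not stated either.

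Signals are array intensities scaled to a common mean, and they are compared between groups for the same probe set only. A signal below the floor (87.3 on the first design, 47.0 on the second) counts as not detected. Where 1 of a pair of groups lay below the floor, the fold change is a lower bound, written "at least". A gene is said to have risen or fallen when it differed by at least 4-fold (2 on the log2 scale). It is called higher or lower when it differed beyond the 95% limit of the measurement error, which was estimated from 100 probe sets placed on both designs. Since samples 1 and 2 may be the same RNA, this error may cover the arrays alone and not the spread between preparations or animals. That limit ran from 0.35 to 0.57 (log2) over the 6 comparisons. The error of a log2 difference was 0.18 between leptotene/zygotene and spermatogonia, 0.21 between pachytene and leptotene/zygotene, 0.28, 0.23 and 0.24 for the 3 fractions against whole testis in that order of age, and 0.29 for whole testis against the somatic mix. Between 55.5% and 64.2% of the first design's probe sets lay above the floor on each array. Germ cell markers, summed over the 19 of 22 read on the first design, had a signal of 9358 in spermatogonia, 20983 in leptotene/zygotene, 63706 in pachytene, 47428 in whole testis and 1622 in the somatic mix. Markers of Sertoli cells, the somatic cells of the tubule, summed to 66282, 59568, 17722, 45400 and 5597 in the same order, so the spermatogonial and leptotene/zygotene fractions carried more of this signal than whole testis did. Bright genes weigh most in such sums, and Ldhc alone read 23494 in pachytene. From leptotene/zygotene to pachytene 10 of 21 measured germ cell markers were higher (30% of all genes) and 10 lower (44% of all genes), with a median of -0.18 (log2).

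Of the 60 genes, 40 were above the floor in at least 1 group (66.7%, against 86.3% of all genes read). The detected ones were 23 of 32 ligands, 6 of 16 receptors, all 4 atypical receptors and 7 of 8 SOCS genes. Whole testis detected the fewest, 19 of 60 (31.7%, against 71.8% of all genes). Spermatogonia detected 27, leptotene/zygotene 24, pachytene 28 and the somatic mix 32. The fractions thus held more detected members than the intact organ did, whereas the share of all genes detected was lower in each fraction (64.6% to 67.1%) than in whole testis.

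Of the 40 detected genes, 14 were above the floor in all 5 groups. They were the ligands Ccl4, Ccl8, Ccl27a, Ccl28, Cx3cl1, Cxcl12, Cxcl16 and Cxcl17, the atypical receptors Ackr1 and Ackr3, and Cish, Socs2, Socs5 and Socs7. On the probe set used for each gene, another 7 were detected in 1 or more fractions and neither in whole testis nor in the somatic mix: Ccl2, Ccl3, Ccl7, Cxcl1, Cxcl2, Cx3cr1 and Cxcr3. In all 3 fractions but not in whole testis, 6 were detected on that probe set: Cxcl1, Cxcl2, Cxcl10, Ccl2, Socs3 and Socs4. The somatic mix alone detected Ccl5, Ccl6, Ccl9, Ccl11, Ccl24, Cxcl15 and Cxcr5 in the same reading. Other probe sets put Cxcl1 (200.1) and Socs4 (181) above the second design's floor in whole testis, Cxcl1 (346) also in the somatic mix, and Ccl6 (166) above the first design's floor in whole testis. Counting a gene as detected where any probe set on either design passed its floor, a reading added after the data were seen, gave 28, 26, 28, 23 and 34 members in spermatogonia, leptotene/zygotene, pachytene, whole testis and the somatic mix. The 20 genes below the floor in every group included Socs1 and 10 of the 16 receptors, among them Cxcr2, Ccr1, Ccr7 and Ccr9.

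**Figure D1:**
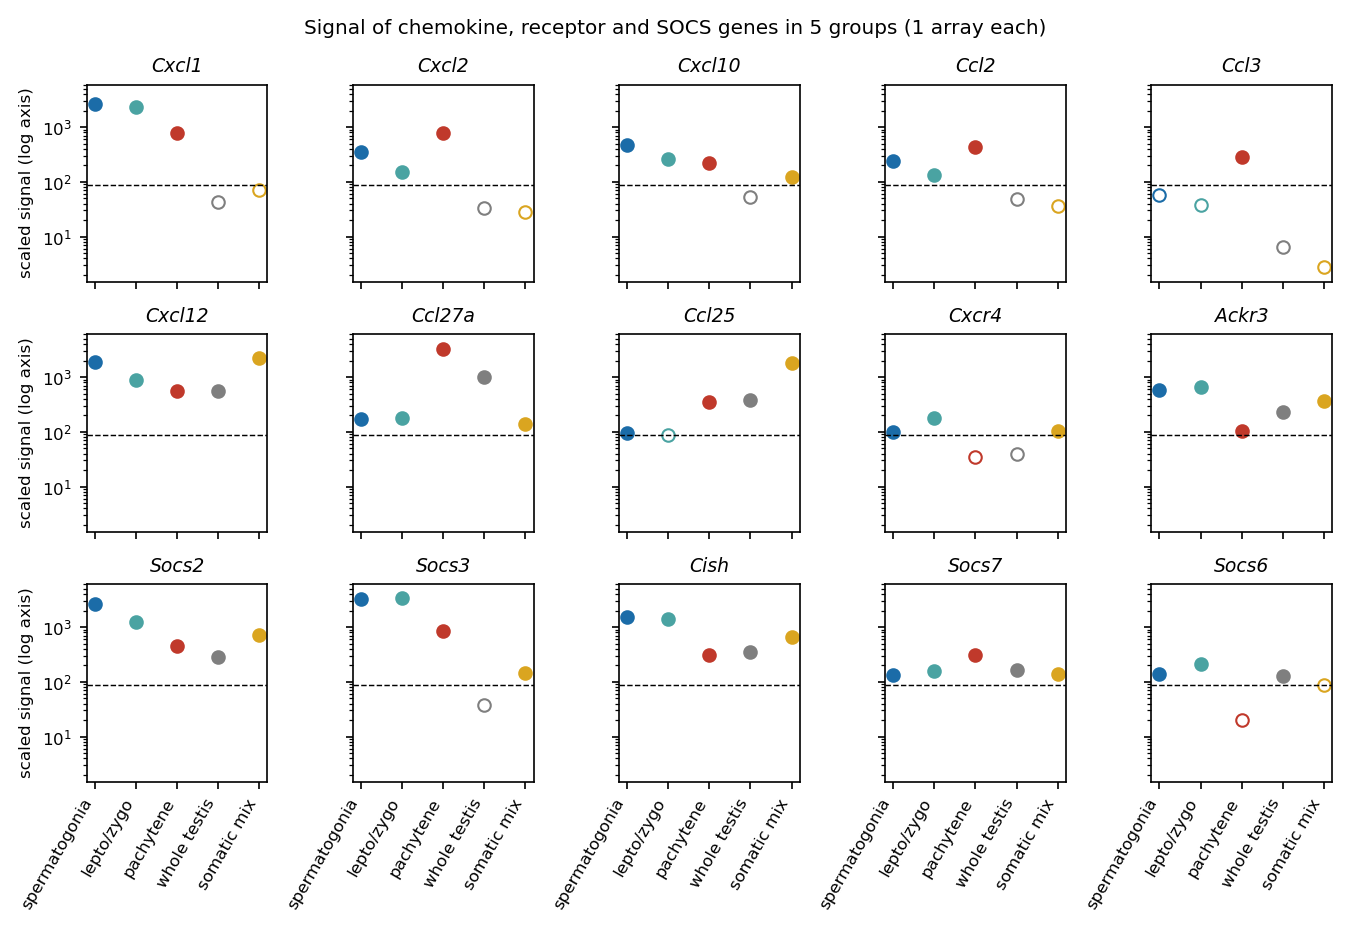
Scaled signal (log axis) of 15 chemokine, receptor and SOCS genes in the 5 groups, 1 array each. Filled points lie above the floor of 87.3 (dashed line) and open points below it; Cxcl1 and Socs3 are far above the floor in the 3 fractions and below it in whole testis, on these probe sets, while Ccl27a peaks at 3243 in pachytene.

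Cxcl1 and Cxcl2 encode attractants of neutrophils that signal through Cxcr2. Cxcl1 had a signal of 2602 in spermatogonia, 2340 in leptotene/zygotene, 784 in pachytene, 42.2 in whole testis and 69.9 in the somatic mix. On this probe set it was high in every fraction and undetected in both unfractionated samples. Against whole testis it rose by at least 29.8-fold in spermatogonia (log2 4.90), at least 26.8-fold in leptotene/zygotene (4.74) and at least 8.99-fold in pachytene (3.17). The second design carried another 2 probe sets for Cxcl1, both of kinds that may bind related sequences, and gave the same order of fractions. The former read 3089, 2209 and 1401 in the fractions, 200.1 in whole testis and 346 in the somatic mix, and the latter read 5604, 2893, 1568, 41.3 and 156. Both placed Cxcl1 above that design's floor of 47.0 in the somatic mix, and the former did so in whole testis as well, always with the fractions far above.

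Cxcl2 followed another course. Its signal was 348 in spermatogonia, 153 in leptotene/zygotene, 776 in pachytene, 33.7 in whole testis and 27.9 in the somatic mix. It was highest in pachytene, where it rose 5.07-fold over leptotene/zygotene (log2 2.34) while Cxcl1 was 2.98-fold lower (log2 -1.58). Against whole testis it rose by at least 8.89-fold in pachytene and missed the threshold in spermatogonia (at least 3.99-fold) and leptotene/zygotene (at least 1.75-fold). Cxcr2, their receptor, was below the floor in every group, with a highest signal of 16.3 in pachytene. In RefSeq's GRCm38.p6 table Cxcl1 and Cxcl2 lie in a cluster on chromosome 5 with Cxcl3, Cxcl5 and Cxcl15. Cxcl3 and Cxcl5 were undetected in all groups, and Cxcl15, a lung chemokine, was detected in the somatic mix alone (201.1).

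The promoters of Cxcl1 and Cxcl2 are shown because these 2 genes of 1 cluster were detected in all fractions and had lower signals in whole testis on every probe set detected. Each run covers 250 bases before and 20 bases after the RefSeq start site of the mouse assembly GRCm38.p6, written 5′ to 3′ on the gene's strand. Capitals mark the matches to the NF-kappaB consensus, searched on both strands; in each promoter 2 matches overlap, shifted by 1 base. The Cxcl1 run is chr5:90890995-90891264 (+) and the Cxcl2 run is chr5:90903649-90903918 (+).
Cxcl1: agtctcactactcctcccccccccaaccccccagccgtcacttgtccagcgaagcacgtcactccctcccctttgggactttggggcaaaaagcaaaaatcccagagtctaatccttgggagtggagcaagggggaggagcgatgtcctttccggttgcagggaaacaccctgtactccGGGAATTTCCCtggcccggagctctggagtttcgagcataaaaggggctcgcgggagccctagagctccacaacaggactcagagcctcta
Cxcl2: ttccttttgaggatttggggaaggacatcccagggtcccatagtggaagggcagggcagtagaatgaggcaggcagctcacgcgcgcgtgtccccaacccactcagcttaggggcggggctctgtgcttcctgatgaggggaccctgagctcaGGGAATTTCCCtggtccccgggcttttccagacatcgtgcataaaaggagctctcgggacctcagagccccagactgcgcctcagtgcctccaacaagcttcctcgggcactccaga
The match starts at base 180 in Cxcl1 and base 154 in Cxcl2, counted from the 5′ end of the run. Over all 32851 promoters of the table, taken with 50 bases after the start, 8.46% held such a match. Of the 56 promoters of the 49 members that the table covers, 12 did, each of a different member. Those members include Cxcl3, Cxcl10, Ccl1, Ccl9, Ccl20 and Ackr2. A match is a stretch of letters, and binding was not measured here. The 12 include undetected genes (Cxcl3, Ccl1, Ccl20, Ccr1 and Ccr3).

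Cxcl10, an interferon-inducible ligand of Cxcr3, had a signal of 464 in spermatogonia, 266 in leptotene/zygotene, 225 in pachytene, 52.0 in whole testis and 123 in the somatic mix. Against whole testis it rose by at least 5.31-fold in spermatogonia (log2 2.41), and it was higher by at least 3.05-fold in leptotene/zygotene and at least 2.57-fold in pachytene. With the floor at the 60th percentile the spermatogonial difference was 1.05 (log2), below 4-fold. Its chromosome 5 neighbours Cxcl9 and Cxcl11, induced by interferon as well, were undetected in every group. Cxcr3 was detected in pachytene alone (121, against 73.7 in whole testis). In the same table the Cxcl10 gene overlaps Art3, and transcripts of the overlap cannot be told apart by a probe that lies in both.

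Of the chromosome 11 chemokines, Ccl2, Ccl3, Ccl4, Ccl7 and Ccl8 were highest in pachytene among the testis samples and above the somatic mix. Ccl2, the main attractant of monocytes, had a signal of 241 in spermatogonia, 132 in leptotene/zygotene, 435 in pachytene, 49.3 in whole testis and 36.6 in the somatic mix. All 3 fractions stood above both unfractionated samples, and in pachytene Ccl2 rose by at least 4.98-fold over whole testis (log2 2.32). Its neighbour Ccl7, which acts on the same receptor, was detected in pachytene alone, at 135.5, with 55.7, 51.7, 16.5 and 14.4 elsewhere. Ccl3 was detected in pachytene alone too, at 279 against 58.2 in spermatogonia, 37.7 in leptotene/zygotene, 6.48 in whole testis and 2.73 in the somatic mix, and was higher there by at least 3.19-fold than in leptotene/zygotene and in whole testis. Ccl4, a neighbour of Ccl3 with similar activity, was above the floor everywhere, at 174, 132, 352, 150.2 and 128. In pachytene it was 2.66-fold higher than in leptotene/zygotene and 2.35-fold higher than in whole testis. In the RefSeq table the spans of Ccl3 and Ccl4 overlap, and a probe that lies in both could not tell them apart. Ccl8, also a monocyte attractant, read 122, 146, 241, 149 and 145 and was 1.65-fold higher in pachytene than in leptotene/zygotene.

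The remaining detected genes of these chromosome 11 clusters were those of the somatic mix. Ccl5, Ccl6 and Ccl9 lie in 1 cluster with Ccl3 and Ccl4, and Ccl11, an eosinophil attractant, lies with Ccl2, Ccl7 and Ccl8. In the somatic mix these genes read between 186 and 345, and each was below the floor in all testis samples on the probe set used. A second probe set for Ccl6 read 166 in whole testis and 1025 in the somatic mix, with 5.50 to 12.5 in the fractions. Neighbours thus had different courses: Ccl2, Ccl7, Ccl8, Ccl3 and Ccl4 peaked in pachytene, and Ccl5, Ccl6, Ccl9 and Ccl11 in the somatic mix. Ccl12, of the Ccl2 cluster, was below the floor in every group.

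Most measured markers of macrophages were higher in pachytene than in leptotene/zygotene, as Ccl2, Ccl3, Ccl4, Ccl7 and Ccl8 were. Most of these markers, but none of those 5 chemokines, were also higher over the step before it. Summed over 22 markers read on the first design, their signal was 2200 in spermatogonia, 3863 in leptotene/zygotene, 7393 in pachytene, 6254 in whole testis and 18941 in the somatic mix. Csf1r, the receptor for the macrophage growth factor, read 264, 546, 1308, 1487 and 3700, and Lyz2, a lysozyme of myeloid cells, read 158, 454, 1001, 584 and 3112. Of 24 listed markers 11 were above the floor in spermatogonia, 16 in leptotene/zygotene, 17 in pachytene, 17 in whole testis and 21 in the somatic mix, and Itgam and Cd163 were below it in every group. From leptotene/zygotene to pachytene 14 of 18 measured markers were higher (30% of all genes) and none lower (44% of all genes). From spermatogonia to leptotene/zygotene 12 of 16 were higher (24.1% of all genes) and 1 lower (22.2% of all genes). Over that step Ccl2 (241 to 132) and Ccl4 (174 to 132) were lower, and Ccl8 (122 to 146) was within the error limit. Ccl3 and Ccl7 were undetected in both fractions. Whole testis and the somatic mix carried the macrophage marker signal too, at a level close to or above that of pachytene. Ccl2, Ccl3 and Ccl7 were undetected there, and Ccl4 and Ccl8 were detected. Lymphocyte, granulocyte, mast cell and blood markers were below the floor in spermatogonia and leptotene/zygotene, and of 23 read (26 listed) 6 were above it in pachytene, 7 in whole testis and 16 in the somatic mix. The part of these cells in the chemokine signals was not tested. In a bulk sample, fewer cells of a type and less RNA per cell cannot be told apart.

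Ccl27a, known as a skin chemokine, had the largest difference of all members that were detected on both sides. It read 173 in spermatogonia, 182 in leptotene/zygotene, 3243 in pachytene, 1019 in whole testis and 139 in the somatic mix. It rose 17.9-fold from leptotene/zygotene to pachytene (log2 4.16) and stood 7.33-fold higher in whole testis than in the somatic mix (2.87). Relative to whole testis it was 5.89-fold lower in spermatogonia and 5.61-fold lower in leptotene/zygotene. The identity is uncertain. The probe set is of a kind that may bind related sequences, the gene overlaps Il11ra1 in the RefSeq table, and the annotation gives 2 further probe sets to 5 near-identical genes each. Those shared probe sets read 346, 387, 5114, 1956 and 592, and 219, 201, 4310, 997 and 63.6, also with the peak in pachytene.

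Ccl25, a chemokine of thymus and gut, read 93.9 in spermatogonia, 85.9 in leptotene/zygotene, 351 in pachytene, 376 in whole testis and 1796 in the somatic mix. It rose by at least 4.02-fold from leptotene/zygotene to pachytene, was 4.004-fold lower in spermatogonia than in whole testis, with a bound of 4.31-fold for leptotene/zygotene, and was 4.78-fold lower in whole testis than in the somatic mix. Several of these lie at the threshold. On the second design Ccl25 read 97.8, 90.1, 108, 163 and 116, with a difference of 0.26 (log2) between pachytene and leptotene/zygotene and of the opposite sign, 0.50, for whole testis against the somatic mix.

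Cxcl12, the ligand of Cxcr4 and Ackr3, was above the floor in all groups. It read 1858 in spermatogonia, 898 in leptotene/zygotene, 560 in pachytene, 566 in whole testis and 2216 in the somatic mix. It was 3.28-fold higher in spermatogonia than in whole testis (log2 1.71), 2.07-fold lower in leptotene/zygotene than in spermatogonia, and 3.91-fold lower in whole testis than in the somatic mix. Its other probe set of the first design declined in the same order over the fractions, 354, 192 and 129, but read 331 in whole testis, close to spermatogonia, and 1771 in the somatic mix. On the second design a weak probe set (65.3, 34.8, 43.6, 74.7 and 88.5) did not place spermatogonia above whole testis. The excess in spermatogonia over whole testis therefore rests on 1 probe set, and the decline from spermatogonia to leptotene/zygotene appears in all of them. Markers of peritubular, stromal and vascular cells, which are sources of Cxcl12 in many organs, summed to 45459, 23685, 14528, 30307 and 34086 in the 5 groups, and their part was not tested.

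Cx3cl1, a membrane-bound chemokine, read 393 in spermatogonia, 159 in leptotene/zygotene, 143 in pachytene, 120.2 in whole testis and 301 in the somatic mix. It was 3.27-fold higher in spermatogonia than in whole testis and 2.47-fold lower in leptotene/zygotene than in spermatogonia. Its receptor Cx3cr1, carried by macrophages and monocytes, read 15.5, 91.0, 125, 42.6 and 59.8 in the same order and was detected in leptotene/zygotene and pachytene only. These receptor signals are close to the floor of 87.3, and a second Cx3cr1 probe set (2.40 to 3.93) and the other 3 of Cx3cl1 were below the floor in every group. Cxcl13, which organises B cell follicles, read 92.6, 49.5, 120, 90.1 and 691, and was 7.67-fold lower in whole testis than in the somatic mix (log2 -2.94). Ccl24, an eosinophil attractant, was detected in the somatic mix alone, at 115.5. The rest of the detected ligands, Ccl28, Cxcl14, Cxcl16 and Cxcl17, stayed between 44.9 and 217 in the testis samples, with no difference past 2-fold in the 6 comparisons.

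Among the receptors, Cxcr4 read 99.4 in spermatogonia, 181 in leptotene/zygotene, 34.2 in pachytene, 38.9 in whole testis and 104 in the somatic mix. It was 1.82-fold higher in leptotene/zygotene than in spermatogonia (log2 0.86), and at least 2.07-fold lower in pachytene than in leptotene/zygotene. Both earlier fractions detected it and pachytene and whole testis did not. Ccr2, the receptor of Ccl2 and Ccl7, was read on the second design and barely passed its floor of 47.0, with 60.3, 74.3, 28.3, 32.4 and 49.2. It was thus undetected in pachytene, where both ligands were highest. Its first-design probe sets were below the floor of 87.3 in every group (highest signal 73.3), so its detection rests on 1 probe set. Ccr6, a receptor of lymphoid and mucosal cells, lay between 81.8 and 136 in the testis samples and at 301 in the somatic mix. Cxcr5, the receptor of Cxcl13, was detected in the somatic mix alone (149).

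Of the atypical receptors, Ackr3 binds and removes Cxcl12. It read 582 in spermatogonia, 645 in leptotene/zygotene, 104 in pachytene, 234 in whole testis and 363 in the somatic mix. It fell 6.196-fold from leptotene/zygotene to pachytene (log2 -2.63), the largest measured decline among members detected in both fractions, and was 2.48-fold and 2.75-fold higher in spermatogonia and leptotene/zygotene than in whole testis. Cxcl12, Cxcr4 and Ackr3 were therefore all lower in pachytene than in leptotene/zygotene. Ackr1, which binds many inflammatory chemokines on blood vessels and red cells, read between 112 and 172 in the testis samples and 479 in the somatic mix. Ackr2, a scavenger of inflammatory CC chemokines, was barely above the floor in pachytene (96.6) and in the somatic mix (101). Its second-design probe set read 52.3, 57.7, 51.1, 92.2 and 109, above that floor in all 5 groups and with pachytene lowest. Ackr4, which takes up Ccl25 among others and was read on the second design, was detected in spermatogonia (72.3) and in the somatic mix (171).

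Socs3, the feedback inhibitor of cytokines that act through Stat3, was above whole testis in all fractions. Its signal was 3266 in spermatogonia, 3406 in leptotene/zygotene, 835 in pachytene, 37.3 in whole testis and 144 in the somatic mix. It rose by at least 37.4-fold in spermatogonia (log2 5.23), at least 39.0-fold in leptotene/zygotene (5.29) and at least 9.57-fold in pachytene (3.26) against whole testis, and fell 4.08-fold from leptotene/zygotene to pachytene (log2 -2.03). This probe set is of the kind that may bind related sequences. The gene's plain probe set read 2231, 1423, 392.1, 10.5 and 27.3, and the remaining one 1772, 1288, 308, 50.2 and 122. All 3 were above the floor in every fraction and below it in whole testis, and they placed spermatogonia and leptotene/zygotene above pachytene.

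Cish, induced by growth hormone and other cytokines through Stat5, read 1537 in spermatogonia, 1417 in leptotene/zygotene, 311 in pachytene, 350.1 in whole testis and 670.1 in the somatic mix. It rose 4.39-fold in spermatogonia and 4.05-fold in leptotene/zygotene over whole testis, and fell 4.55-fold from leptotene/zygotene to pachytene (log2 -2.19). Pachytene and whole testis were within error of each other (-0.17). Socs2, which limits growth hormone signalling, read 2673, 1223, 443, 286 and 710 in the 5 groups. It rose 9.36-fold in spermatogonia (log2 3.23) and 4.28-fold in leptotene/zygotene (2.10) over whole testis, and was already 2.19-fold lower in leptotene/zygotene than in spermatogonia. A second probe set of the first design gave 2273, 1171, 310 and 253 in the testis samples. On the second design the probe set with the most even signal (156, 160, 122, 149 and 227) showed no such decline, while another 2 declined from 287 and 127 in spermatogonia to 57.0 and 2.81 in pachytene. In the RefSeq table Socs2 overlaps the predicted gene Gm33230.

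The promoters of Socs3 and Cish are shown for comparison with those of the chemokines, over the same window. Capitals mark matches to the STAT motif TTCNNNGAA, which reads the same on both strands. The Socs3 run is chr11:117969347-117969616 (-) and the Cish run is chr9:107296409-107296678 (+), both in GRCm38.p6.
Socs3: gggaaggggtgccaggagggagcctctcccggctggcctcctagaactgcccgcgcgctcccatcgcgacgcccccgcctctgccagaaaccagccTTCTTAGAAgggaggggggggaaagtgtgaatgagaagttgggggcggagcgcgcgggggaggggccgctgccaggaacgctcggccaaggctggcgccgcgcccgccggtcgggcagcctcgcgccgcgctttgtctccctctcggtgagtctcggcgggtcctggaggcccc
Cish: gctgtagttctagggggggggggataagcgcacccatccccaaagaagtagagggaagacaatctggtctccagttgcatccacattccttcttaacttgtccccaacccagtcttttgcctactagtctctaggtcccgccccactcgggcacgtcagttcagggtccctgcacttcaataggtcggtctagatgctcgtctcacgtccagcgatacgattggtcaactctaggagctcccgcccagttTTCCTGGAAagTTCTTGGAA
Socs3 holds 1 match, from base 97 to 105 of the run. Cish holds 2, from base 251 to 259 and from 262 to 270, at and just after the start site. Of all 32851 promoters 8.3% held such a match, and of the 56 promoters of the 49 members 6 did, each of a different member. Neither NF-kappaB matches in Socs3 and Cish nor STAT matches in Cxcl1 and Cxcl2 were found in these windows.

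The other SOCS genes stayed below 4-fold in all 6 comparisons on the probe sets used, and their probe sets differed in course. Socs5, which acts on growth factor receptors, read between 500.3 and 655 in the testis samples and 373 in the somatic mix, within the error limit in all 6 comparisons. A second probe set for Socs5 read 205, 112, 54.2, 104 and 121 and placed spermatogonia above whole testis (log2 0.98) and pachytene lowest. Socs7, linked to insulin and cytoskeletal signalling, read 134, 158, 307, 164 and 141, and was 1.94-fold higher in pachytene than in leptotene/zygotene. Its probe sets on the second design were likewise highest in pachytene, at 2732 and 3289 against 1895 and 2130 in leptotene/zygotene. These 2 probe sets differed in whole testis, at 617 and 2368. Pachytene stood above whole testis by 2.15 (log2), past 4-fold, on the former and by 0.47 on the latter. Spermatogonia differed from whole testis by 1.10 and -0.60. Socs6 read 141, 211, 20.1, 127 and 85.8, and was at least 2.41-fold lower in pachytene than in leptotene/zygotene; on the second design it read 94.1, 75.3, 6.13, 38.9 and 69.7, with the early fractions above whole testis and pachytene lowest. Socs4 lay close to the floor on the first design (70.9 to 137), and its second-design probe set read 345, 256, 61.6, 181 and 359, with the early fractions above whole testis and pachytene lowest (log2 -2.06 against leptotene/zygotene). On the second design Socs4 and Socs6 thus had spermatogonia and leptotene/zygotene above whole testis and pachytene, as Socs3 and Cish did on the first. Socs1, the best known brake on interferon signalling, was below the floor in every group (32.3 to 73.3).

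**Figure D2:**
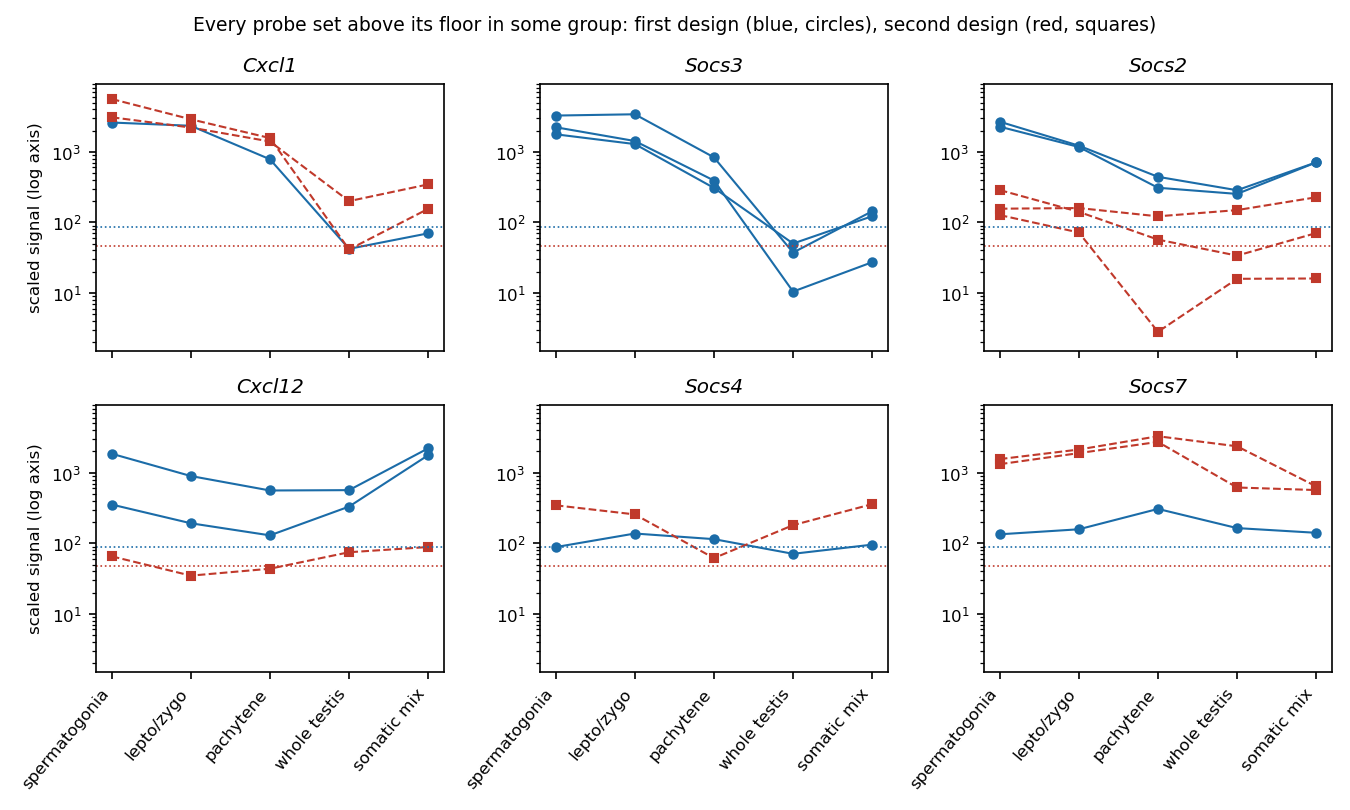
Scaled signal (log axis) of every probe set above its floor in some group for 6 members, on the first design (circles) and the second (squares), 1 array per point; dotted lines are the floors of 87.3 and 47.0. The probe sets of Cxcl1 and of Socs3 are all lower in whole testis than in any fraction, whereas those of Socs2, Cxcl12, Socs4 and Socs7 differ in their order of groups.

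Leptotene/zygotene (day 12) was compared with spermatogonia (day 8). These fractions differed in meiotic stage, in age and in somatic marker signal, which cannot be told apart here. None of the 28 measured members passed 4-fold in either direction, where 0.31% of all measured genes rose and 0.279% fell. Beyond the error limit of 0.35, 3 members were higher (24.1% of all genes) and 10 lower (22.2% of all genes), a share in all near that of all genes. The higher ones were Cxcr4, Socs4 and Socs6. Of 14 ligands 7 were lower and none higher, led by Cx3cl1 (log2 -1.31), Cxcl2 (-1.18) and Cxcl12 (-1.05). The member median was -0.14, against 0.02 over all genes. Socs4 and Socs6 went the other way on the second design (-0.43 and -0.32).

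Pachytene (day 15) was compared with leptotene/zygotene (day 12). Here too meiotic stage, age and somatic marker signal differed together and cannot be told apart. Of 31 measured members 3 rose, Ccl27a, Cxcl2 and Ccl25 (8.7% of all genes rose), and 3 fell, Ackr3, Cish and Socs3 (9.33% of all genes fell), both shares near the background. Beyond the limit of 0.41, 16 were higher (30% of all genes) and 9 lower (44% of all genes), with a median of 0.45 against -0.22 over all genes. Among 16 ligands 11 were higher and 2 lower (median 0.65), whereas among 7 SOCS genes 1 was higher and 4 lower (median -1.27). Cish and Socs3 dropped below 4-fold when arrays were scaled to their medians (-1.82 and -1.66), and Ccl25, Cxcl2 and Ackr3 did so with a higher floor (0.64, 1.79 and -1.52). Different scalings moved the median of all genes detected in both groups by up to 0.36 in this comparison. The members that rose and fell then numbered 4 and 2, 5 and 1, 2 and 3, or 4 and 1 in place of 3 and 3 (quantile, median, as deposited, shared probe sets). Over all genes the same scalings gave 1204 that rose and 840 that fell, 1502 and 747, 1178 and 1578, and 1535 and 604, in place of 1176 and 1262.

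The fractions were each compared with whole testis; these 3 comparisons share the whole-testis array, and spermatogonia and leptotene/zygotene also differ from it in age. In spermatogonia 5 of 28 measured members rose, Socs3, Cxcl1, Socs2, Cxcl10 and Cish (1.97% of all genes rose), and Ccl27a and Ccl25 fell (5.17% of all genes fell). Beyond the limit of 0.54, 11 were higher (25% of all genes) and 2 lower (24.8%), with a median of 0.19 against 0.00. In leptotene/zygotene 4 of 28 rose, Socs3, Cxcl1, Socs2 and Cish (1.19% of all genes), and the same 2 ligands fell (4.15% of all genes). Beyond the limit of 0.46, 13 were higher and 5 lower (25.8% of all genes in each direction), with a median of 0.23 against 0.00. Scaled to the probe sets shared by both designs, Socs2 and Cish missed 4-fold there (1.90 and 1.82). In pachytene, taken at the same age as whole testis, 4 of 30 rose, Socs3, Cxcl1, Cxcl2 and Ccl2 (2.35% of all genes), and none fell (4.39% of all genes). Beyond the limit of 0.46, 14 were higher (25.7% of all genes) and 2 lower (38.2% of all genes), with a median of 0.40 against -0.18. The 2 lower were Ackr3 (-1.17) and Socs6 (at least 1.46-fold lower). All 4 rises in pachytene are measured against a whole-testis signal at the floor, and with the floor at the 60th percentile of all signals none of them reached 4-fold (0.95 to 1.89). Over all genes 325 rose and 608 fell in pachytene. The scalings above gave 303 and 404, 693 and 355, 684 and 827, and 477 and 446, with 4 to 6 members that rose and 0 that fell.

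**Figure D3:**
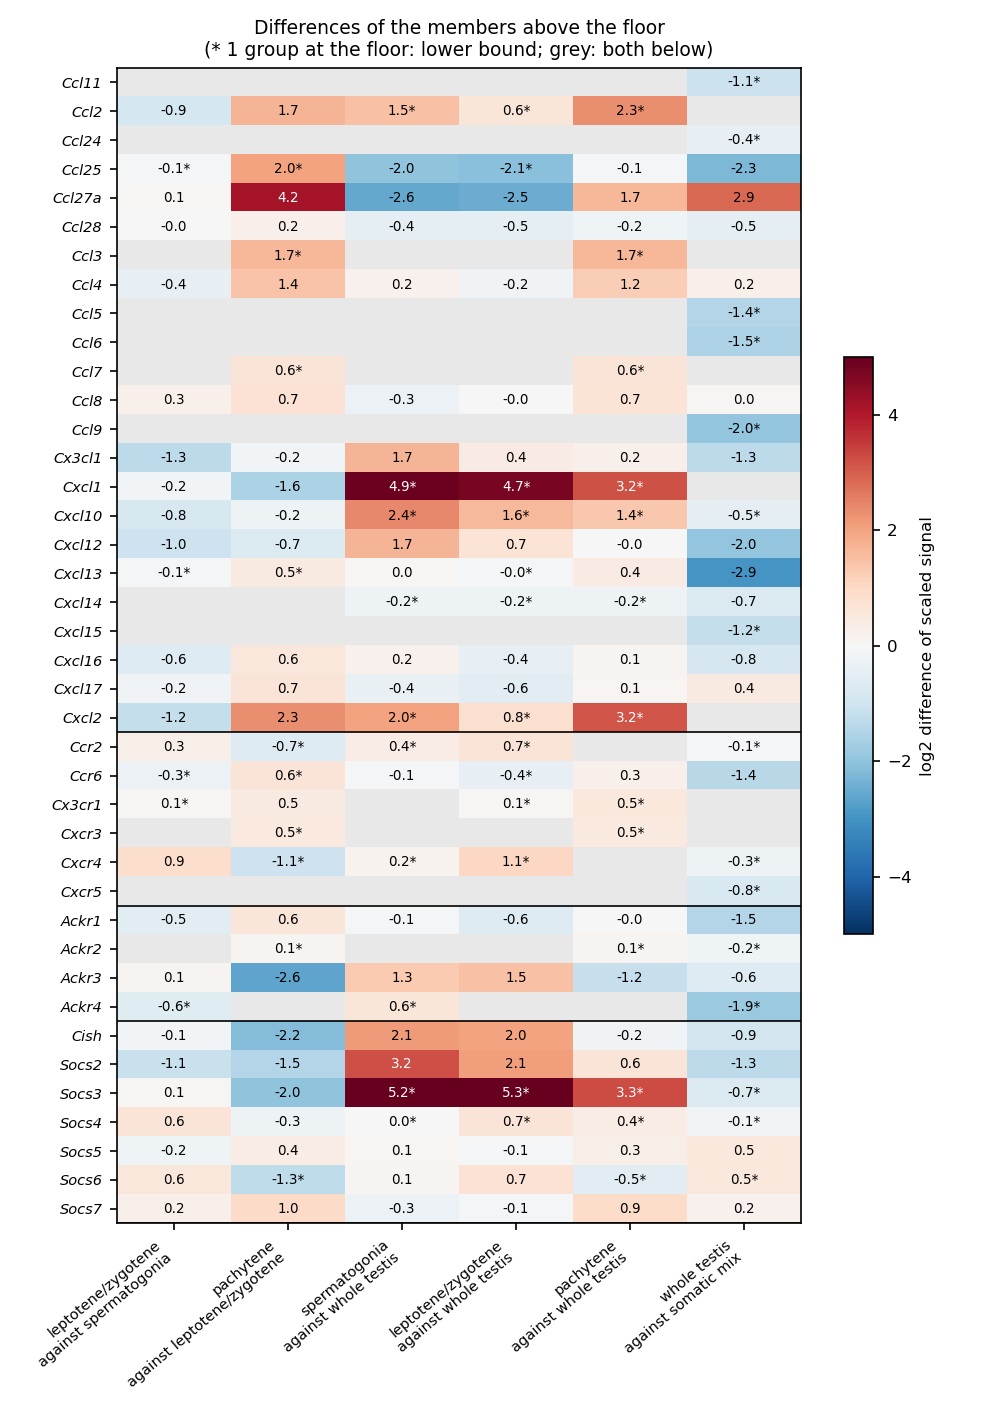
Log2 difference of scaled signal for each of the 40 detected members (rows, grouped as ligands, receptors, atypical receptors and SOCS genes) in the 6 comparisons (columns), 1 array per group; red is higher and blue lower in the first-named group, an asterisk marks a lower bound and grey marks both groups below the floor. Cxcl1 and Socs3 stand out in the 3 columns against whole testis, and Ccl27a has the highest value (4.2) in pachytene against leptotene/zygotene.

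Whole testis was compared with the somatic mix for what sets the organ apart. Most members were lower in the testis. Of 33 measured members Ccl27a alone rose (7.22% of all genes rose), while Cxcl13 and Ccl25 fell (5.7% of all genes fell). Beyond the limit of 0.57, Ccl27a was again the sole higher member (29% of all genes) and 19 were lower (30.6% of all genes), with a median of -0.72 against -0.07. The lower ones were 11 of 18 ligands, 2 of 4 receptors, 3 of 4 atypical receptors and 3 of 7 SOCS genes (Socs2, Cish and Socs3). Just short of the threshold were Ccl9 (at least 3.96-fold lower) and Cxcl12 (3.91-fold lower). Over all genes 1082 rose and 855 fell, against 1288 and 666 in the values as deposited.

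Different probe sets on the second design read 7 or 8 of the members again in each comparison. The direction matched for 6 of 7 in pachytene against leptotene/zygotene and in spermatogonia and leptotene/zygotene against whole testis, for 6 of 8 in whole testis against the somatic mix, and for 4 of 7 in leptotene/zygotene against spermatogonia and in pachytene against whole testis. These counts include differences within the error limit, such as Socs2 in spermatogonia against whole testis (3.23 and 0.07). With both designs beyond the limit, the direction matched for 3 of 3 in pachytene against leptotene/zygotene, 2 of 2 in spermatogonia and in pachytene against whole testis, 4 of 5 in leptotene/zygotene against whole testis (not Cxcl12), 1 of 2 in leptotene/zygotene against spermatogonia (not Socs4) and 1 of 1 in whole testis against the somatic mix. Cxcl1 kept its direction in each comparison it could be read in, with 3.95, 3.46 and 2.81 (log2) for the 3 fractions against whole testis. Its second-design probe set used here is of a kind that may bind related sequences.

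Genes of related pathways were read as lists. Immediate-early and stress genes, transcription factors and feedback regulators switched on within minutes of a stimulus, were above whole testis in the fractions together with Socs3 and Cxcl1. Their summed signal was 90871 in spermatogonia, 60804 in leptotene/zygotene, 20143 in pachytene, 8041 in whole testis and 13388 in the somatic mix. Against whole testis 27 of 36 measured genes of the list rose in spermatogonia, 23 of 34 in leptotene/zygotene and 7 of 33 in pachytene, and none fell. Over all genes 1.97%, 1.19% and 2.35% rose in these comparisons, and 5.17%, 4.15% and 4.39% fell. The median differences of the list were 3.27, 2.86 and 0.71. Fos, for example, rose 75.5-fold, 58.6-fold and 32.5-fold over its whole-testis signal of 154. Like Socs3, Cxcl1, Socs2 and Cish, this list was lower in pachytene than in the earlier fractions, and its part in their levels was not tested. Because all fractions were dissociated and separated, that handling and cell type cannot be told apart in these comparisons.

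Fewer genes of the NF-kappaB pathway and its early inflammatory targets passed 4-fold than immediate-early and stress genes did. Of 31 listed, 3 of 21 measured rose in spermatogonia against whole testis (Ier3, Nfkbiz and Icam1), 2 of 24 in leptotene/zygotene (Ier3 and Nfkbiz) and 1 of 19 in pachytene (Ier3), and none fell. Over all genes 1.97%, 1.19% and 2.35% rose in the same order, and 5.17%, 4.15% and 4.39% fell. Beyond the error limit 11 of 21, 11 of 24 and 9 of 19 were higher (25%, 25.8% and 25.7% of all genes). Lower were 1, 1 and 4 (24.8%, 25.8% and 38.2% of all genes), and the list's medians were 0.62, 0.33 and 0.45 (log2). Ier3, an early response gene, went from below the floor to 5492, 3142 and 509 in the fractions. Icam1, an adhesion molecule for leukocytes, read 1465 in spermatogonia and 171 in whole testis, an 8.56-fold rise. Nfkbia, the inhibitor that NF-kappaB itself induces, was 2.26-fold higher in spermatogonia and 2.10-fold in leptotene/zygotene. In pachytene against leptotene/zygotene Ier3 and Nfkbiz fell (log2 -2.63 and -2.25) and Tnfaip2 rose (2.08).

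Of 50 listed cytokine receptor and JAK-STAT genes, some passed 4-fold against whole testis. The list holds receptors and kinases and also targets and regulators of this signalling. In spermatogonia 2 of 39 rose, against 1.97% of all genes. They were Jak1, the kinase of many cytokine receptors (5.75-fold), and Pim1, a target of STAT factors (5.11-fold). In leptotene/zygotene 4 of 38 rose, Pim1, Cul5, Jak1 and Bcl3, against 1.19% of all genes. In pachytene none rose (2.35% of all genes) and 1 of 38 fell, Ptpn11 (log2 -2.37), against 4.39% of all genes. Stat3 was 3.63-fold and 2.56-fold higher in spermatogonia and leptotene/zygotene than in whole testis. From leptotene/zygotene to pachytene 7 of 37 fell (9.33% of all genes) and none rose (8.7% of all genes), with a median of -0.80. The largest falls were those of Ptpn11 (-3.15), Bcl3 (at least 7.02-fold), Jak1 (-2.30), Lifr (-2.27), Il6st (-2.16) and Ptpn2 (-2.03). Il6st is a receptor chain shared by several cytokines that induce Socs3. Socs3 and Cish fell over this step as well, as did 9.33% of all genes, 11 of 20 measured Sertoli cell markers (median -2.28) and 5 of 10 Leydig cell markers (median -1.98). The part of these cells was not tested.

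**Figure D4:**
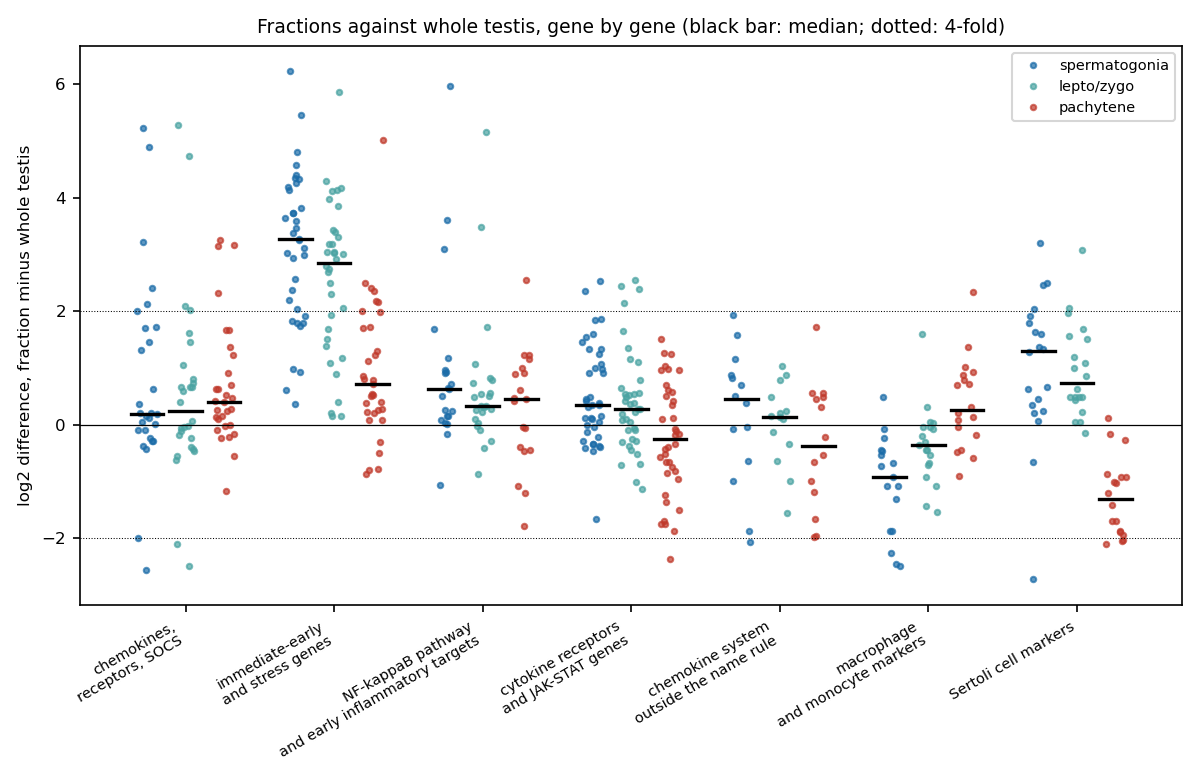
Log2 difference between each fraction and whole testis for single genes (points) of 7 gene groups, with the median as a black bar and 4-fold marked by dotted lines, 1 array per group. Immediate-early and stress genes have the highest medians (3.27 in spermatogonia, 2.86 in leptotene/zygotene, 0.71 in pachytene). The chemokine, receptor and SOCS genes have medians of 0.19, 0.23 and 0.40. Of them Cxcl1 and Socs3 alone lie above 4 (log2), in spermatogonia and leptotene/zygotene and not in pachytene.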

How the data were processed

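Messenger RNA of 10 samples (5 groups, 2 each) was measured on 2 Affymetrix designs. The authors deposited linear intensity values, 1 per probe set, made with GCOS 1 per the submitters' processing notes. Scaling target and background correction are not stated there. The number of arrays limits the precision.

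Each design's 5 arrays were brought to 1 common 2% trimmed mean. On the first design the floor (87.3) was the 90th percentile over 71 probe sets of chemosensory receptors and, with only 14 of these on the second (minimum 20), the median of its signals (47.0). Of 22690 probe sets on the first design 20380 named 1 gene, 691 several, 1555 none and 64 were controls; on the second, of 22575, these were 14661, 245, 7605 and 64. Probe sets with several genes were left out, 4 of which matched the name rule. Each gene took its brightest probe set by mean log2 signal, on the first design if 1 or more lay above the floor there. Of the 60 members 3 (Ackr4, Ccl28 and Ccr2) were read on the second. Differences are log2 ratios of scaled signal between groups within a design. Their error comes from 100 probe sets present on both designs, as the root mean square gap over the root of 2, and the limit is 1.96 times that. Scripts ran in Python 3.11.15 with numpy 2.4.6 and pandas 2.3.3 and were tested on simulated data.

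Members named with all values are those at least 4-fold different in some comparison and Cxcl1, Cxcl2, Socs3, Cxcl12, Cxcr4, Ackr3, Ccl2, Cx3cl1, Cx3cr1 and Cish; of each other list at most 6 genes per comparison are named, those with the largest difference. The members and lists were chosen with earlier results of these data known. Alternatives covered scaling, floor, log scale, choice of probe set, threshold and error. Promoters are from RefSeq (GRCm38.p6).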

Additional observations from a re-analysis of the deposited data

How the results depend on the processing

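No paired analysis was possible because each design held 1 array per group, so the replicate number and the design are the same thing. Of 26 member differences of at least 4-fold (11 genes), none of 229 values under the alternatives changed direction, 36 values (16 differences) dropped below 4-fold, and 5 could not be computed with plain probe sets only (Ackr3 once, Ccl27a in 4 comparisons). The counts of members past 4-fold, called higher and lower in this list, changed as follows, and the causes were not tested. With the floor at the 60th percentile pachytene against leptotene/zygotene had 1 higher, spermatogonia and leptotene/zygotene against whole testis 1 lower each, pachytene against whole testis 0 higher and whole testis against the somatic mix 1 lower. With the floor at the 40th percentile, quantile normalization, scaling to the shared probe sets, or the mean over probe sets, the last comparison had 4 lower. Quantile normalization left 1 lower in spermatogonia against whole testis. Median scaling gave 5 higher and 1 lower in pachytene against leptotene/zygotene, scaling to the shared probe sets 1 lower there and 2 higher in leptotene/zygotene against whole testis. With log2 of signal plus floor these were 1 higher and 0 lower in pachytene against leptotene/zygotene, 3 higher and 1 lower in spermatogonia against whole testis, and 2 higher and 1 lower in leptotene/zygotene against whole testis. Plain probe sets gave 1 lower in pachytene against leptotene/zygotene and in both earlier fractions against whole testis, and 0 higher in whole testis against the somatic mix. At 2-fold, leptotene/zygotene against spermatogonia had 4 lower, pachytene against leptotene/zygotene 6 higher and 7 lower, spermatogonia, leptotene/zygotene and pachytene against whole testis 10, 7 and 8 higher (pachytene 1 lower), and whole testis against the somatic mix 13 lower. The median of all genes detected in both groups moved with the scaling by over 0.1 in pachytene against leptotene/zygotene (0.17 quantile, 0.30 median, 0.36 shared probe sets), pachytene against whole testis (0.13, 0.33 and 0.15), whole testis against the somatic mix (0.17 median, 0.22 deposited), spermatogonia and leptotene/zygotene against whole testis (-0.20 and -0.22 shared probe sets), and leptotene/zygotene against spermatogonia and whole testis (0.11 deposited each). With an error from the dimmer probe sets shared by the designs, every count beyond the limit stayed within 1.5 times. Low signals are limited by the floor: 20 members were below it in all groups.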

Other observations

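Relatives of the chemokine system outside the name rule had courses of their own. Cklf, a chemokine-like factor, read 692 in spermatogonia, 860.3 in leptotene/zygotene, 8429 in pachytene, 2546 in whole testis and 521 in the somatic mix, and rose 9.80-fold from leptotene/zygotene to pachytene. Mif, a cytokine that also binds chemokine receptors, went the other way, from 6339 in leptotene/zygotene to 974 in pachytene, a 6.51-fold fall. Cmtm4 of the same family as Cklf fell 4.15-fold over that step. Rarres2, the precursor of the attractant chemerin, read 1333, 549, 152, 599 and 2060 in the 5 groups. Of the platelet chemokines, Pf4 read 147, 484, 861, 617 and 1847 and was 4.21-fold lower in spermatogonia than in whole testis, while Ppbp was detected in the somatic mix alone (1112). Of 19 listed genes 1 of 13 measured rose (8.7% of all genes) and 2 fell (9.33% of all genes) in pachytene against leptotene/zygotene. Their median was -1.004 (log2).

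The 10 first-design markers of Leydig cells, the steroid-producing cells between the tubules, summed to 23953 in spermatogonia, 14265 in leptotene/zygotene, 7592 in pachytene, 11607 in whole testis and 5745 in the somatic mix.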
